A study of Homo sapiens with 4 samples.

Results

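The core loop of the circadian clock was examined in 2 lists of genomic sites called as USF1 peaks by ChIP-seq in Huh7 cells, an established human liver cancer line. The genes were taken by name: the activators CLOCK and BMAL1, the repressors PER1, PER2, PER3, CRY1 and CRY2, the REV-ERB genes NR1D1 and NR1D2, and the output factor DBP. All 10 matched a gene among the 20033 protein-coding genes of the RefSeq table used (GRCh38.p14). A peak was assigned to a gene when its centre lay in the gene or within 10000 bp of it, which gave 11 of the 14300 peaks of list 1 and 21 of the 27325 peaks of list 2.

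The immunoprecipitated group (IP, n = 2) held DNA pulled down with an antibody to the FLAG tag, and the input group (n = 2) held chromatin from the same line without that step. The series' design text says that USF1 was overexpressed but does not name the libraries this covers. An IgG library was not used here. The labels give neither the promoter or clone behind the overexpression nor the time of harvest, and they do not say whether equal replicate numbers mark separate cultures. List 1 came from IP 1 against input 1 and list 2 from IP 2 against input 2. After removal of duplicate reads the IP libraries kept 47165647 and 43942638 reads, and the input libraries 46345938 and 43562726.

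In mammals CLOCK and BMAL1 bind E-box sequences as a pair and activate the PER and CRY genes, whose proteins return to repress that pair. The same pair activates the REV-ERB genes, whose receptors repress BMAL1, and DBP, which acts on D-box sequences of further clock genes. USF1, a bHLH-ZIP factor, also recognises the E-box. Clock genes cycle strongly in liver, where they set the daily timing of metabolism.

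Peaks lay at 8 of the 10 genes in list 1, at 9 in list 2, and at 8 as a shared peak, which is a list 1 peak and a list 2 peak of the same gene that overlap by at least 1 bp. Among all protein-coding genes the shares were 32.7% in list 1, 56.8% in list 2 and 21.6% for shared peaks. The clock genes had a median length of 46074.5 bp, against 24130 bp over all protein-coding genes. A longer gene offers more room for a peak, but the part of length in these counts was not tested. PER2 had no peak in either list, and CRY2 had peaks in list 2 alone. Each gene is either called or not in 2 lists, so no test was made and both lists' values are given as the spread between replicates.

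**Figure D1:**
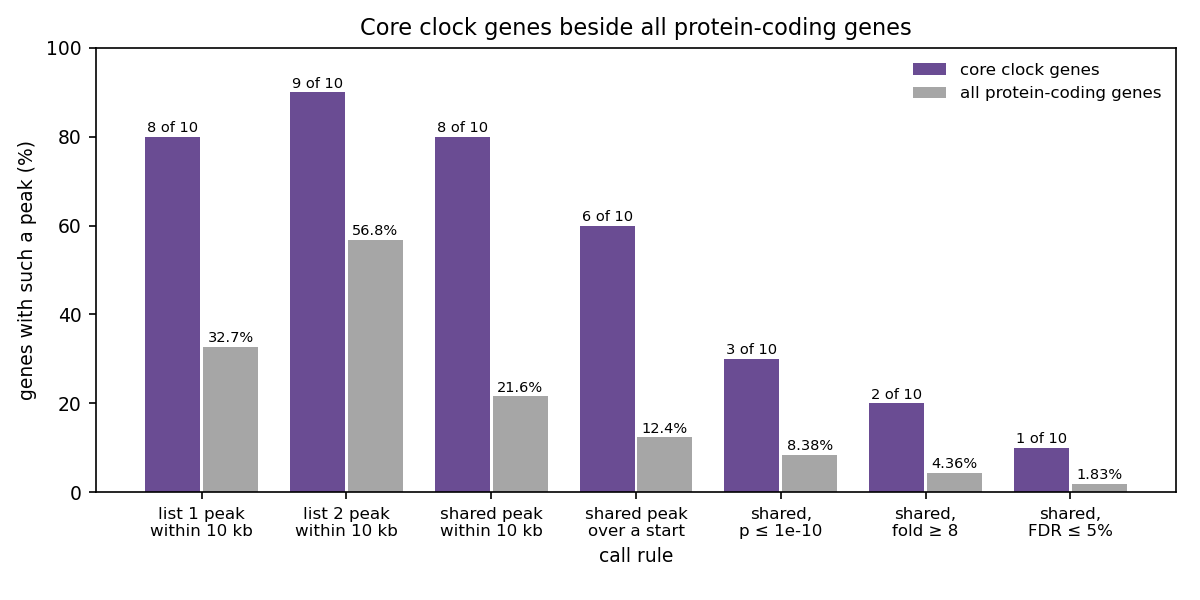
Share of genes with a USF1 peak (percent, vertical axis) under 7 call rules, for the 10 core clock genes (left bar, with the count) and for all protein-coding genes (right bar, with the percent). For shared peaks within 10 kb the bars stand at 8 of 10 genes and 21.6%, and with an FDR of at most 5% asked of each list they stand at 1 of 10 and 1.83%.

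Promoter windows of the RefSeq promoter table (250 bases before to 50 after an annotated start, GRCh38.p14) were searched on both strands for 4 sequences: the E-box CACGTG, the E-box variant CACGTT, the D-box TTANGTAA and the half-site AGGTCA that REV-ERB and ROR receptors recognise. The E-box was in 2 of the 15 windows of the clock genes, 1 at PER1 and 1 at NR1D2, against 7.23% of 34943 windows of all genes. The variant was in 5 windows (5.35% of all), the D-box in 3 (2.19%) and the half-site in 4 (13.8%). The stretches that the peaks below refer to are shown 5′ to 3′ on the gene's strand. Each is the 250 bases before a start, with a sequence found on either strand in capitals.
NR1D2, second start, chr3:23945871-23946120, plus strand (a D-box, then 2 E-boxes): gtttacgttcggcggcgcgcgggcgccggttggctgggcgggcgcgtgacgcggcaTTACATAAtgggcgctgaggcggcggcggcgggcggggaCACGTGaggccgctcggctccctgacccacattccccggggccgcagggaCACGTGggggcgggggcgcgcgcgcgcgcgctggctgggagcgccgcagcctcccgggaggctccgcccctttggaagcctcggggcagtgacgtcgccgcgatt
PER1, chr17:8152405-8152654, minus strand (an E-box, then a half-site): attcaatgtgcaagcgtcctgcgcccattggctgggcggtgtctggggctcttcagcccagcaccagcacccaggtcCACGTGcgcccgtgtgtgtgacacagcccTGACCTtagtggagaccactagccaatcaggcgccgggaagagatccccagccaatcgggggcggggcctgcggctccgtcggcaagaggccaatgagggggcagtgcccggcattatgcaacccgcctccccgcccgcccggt
NR1D1, chr17:40100590-40100839, minus strand (the E-box variant): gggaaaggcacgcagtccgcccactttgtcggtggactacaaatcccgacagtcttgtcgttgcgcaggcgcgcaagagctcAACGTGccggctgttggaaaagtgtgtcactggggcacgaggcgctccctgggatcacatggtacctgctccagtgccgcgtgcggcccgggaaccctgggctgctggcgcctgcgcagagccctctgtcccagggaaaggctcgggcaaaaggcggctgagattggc
CRY1, chr12:107093550-107093799, minus strand (the E-box variant): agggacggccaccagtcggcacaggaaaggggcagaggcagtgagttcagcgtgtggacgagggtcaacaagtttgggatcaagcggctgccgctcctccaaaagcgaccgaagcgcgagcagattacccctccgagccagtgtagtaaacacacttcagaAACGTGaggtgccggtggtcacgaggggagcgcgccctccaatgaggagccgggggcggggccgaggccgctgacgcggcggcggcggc
PER3, first start, chr1:7784041-7784290, plus strand (a D-box): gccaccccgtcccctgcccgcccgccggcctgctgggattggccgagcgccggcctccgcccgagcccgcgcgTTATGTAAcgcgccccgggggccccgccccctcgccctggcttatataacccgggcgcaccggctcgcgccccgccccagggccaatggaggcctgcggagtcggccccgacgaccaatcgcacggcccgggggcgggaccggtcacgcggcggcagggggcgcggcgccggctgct
PER2, chr2:238288611-238288860, minus strand (the E-box variant): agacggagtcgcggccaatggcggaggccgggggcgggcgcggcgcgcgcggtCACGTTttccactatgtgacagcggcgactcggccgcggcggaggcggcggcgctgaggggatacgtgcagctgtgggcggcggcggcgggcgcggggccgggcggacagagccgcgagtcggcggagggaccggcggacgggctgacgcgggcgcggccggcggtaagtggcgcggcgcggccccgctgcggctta

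The first 5 lay under a peak and held at least 1 of the 4 sequences, and PER2 was chosen because it had no peak. The second CLOCK window also held the E-box variant with no peak in either list, and the second CRY2 window held it under a list 2 peak. Of the 15 windows, 13 lay under a list 2 peak and 8 under a peak in both lists. The first CLOCK, second PER3, first NR1D2 and DBP windows lay under a peak in both lists and held none of the 4 sequences. The printed stretches therefore do not show how often a peak lies on such a sequence. Over all genes, 31.9% of the windows with an E-box touched a peak in both lists, and 6.68% of the windows without one did. For the variant the shares were 10.2% and 8.41%, for the D-box 4.45% and 8.6%, and for the half-site 5.94% and 8.92%. A match is only a description of the letters in a window and does not show a bound site.

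For each peak the authors give the number of IP tags (reads) in it, the fold of IP tags at the summit over the tags expected from input and local background, and a false discovery rate (FDR). The FDR comes from calling peaks with IP and input exchanged, and it stands on different footings in the lists: 64.35% of all list 1 peaks have an FDR of 100%, and the highest FDR in list 2 is 25.85%. Tags are not scaled to library size, so each tag ratio with an interval below is per read kept. Their 95% exact intervals cover counting error alone, and the peaks of a pair differ in width.

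The activator arm had 6 peaks, all with a fold below the median of their list (5.83 in list 1 and 5.6 in list 2). CLOCK, which encodes the bHLH-PAS partner of BMAL1, carried 1 peak in each list, at chr4:55546427-55547607 in list 1 and chr4:55546483-55547356 in list 2. The peak held 63 tags in list 1 and 43 in list 2, with folds of 4.46 and 5.22 and FDRs of 70.65% and 23.75%. Both summits sat on the annotated start, 9 and 19 bp downstream of it and 10 bp from each other. The non-coding gene LOC124900704 also covers the centre of this peak. The ratio of list 2 to list 1 tags was 0.733 (0.485 to 1.1), and the interval includes equal signal. The CLOCK window at this start held none of the 4 sequences.

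BMAL1, whose protein pairs with CLOCK, had its shared peak about the middle of the gene and not at a start. It lay at chr11:13338804-13339871 in list 1, with 58 tags, a fold of 4.73 and an FDR of 100%. In list 2 it lay at chr11:13338142-13339718, with 98 tags, a fold of 5.06 and an FDR of 0.38%. The summits were 61719 and 60941 bp downstream of the nearest annotated start and 778 bp apart, so the peaks overlapped without a common summit. List 2 alone had 2 further BMAL1 peaks, each over an annotated start, at chr11:13275509-13276760 (69 tags, 3.65-fold, FDR 4.24%) and chr11:13276975-13278547 (121 tags, 3.4-fold, FDR 15.21%). The second of these had the most tags at BMAL1 and the lowest fold of all 32 peaks at the clock genes. The half-site AGGTCA stood 31 to 36 bases after the start in the BMAL1 window beneath it.

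**Figure D2:**
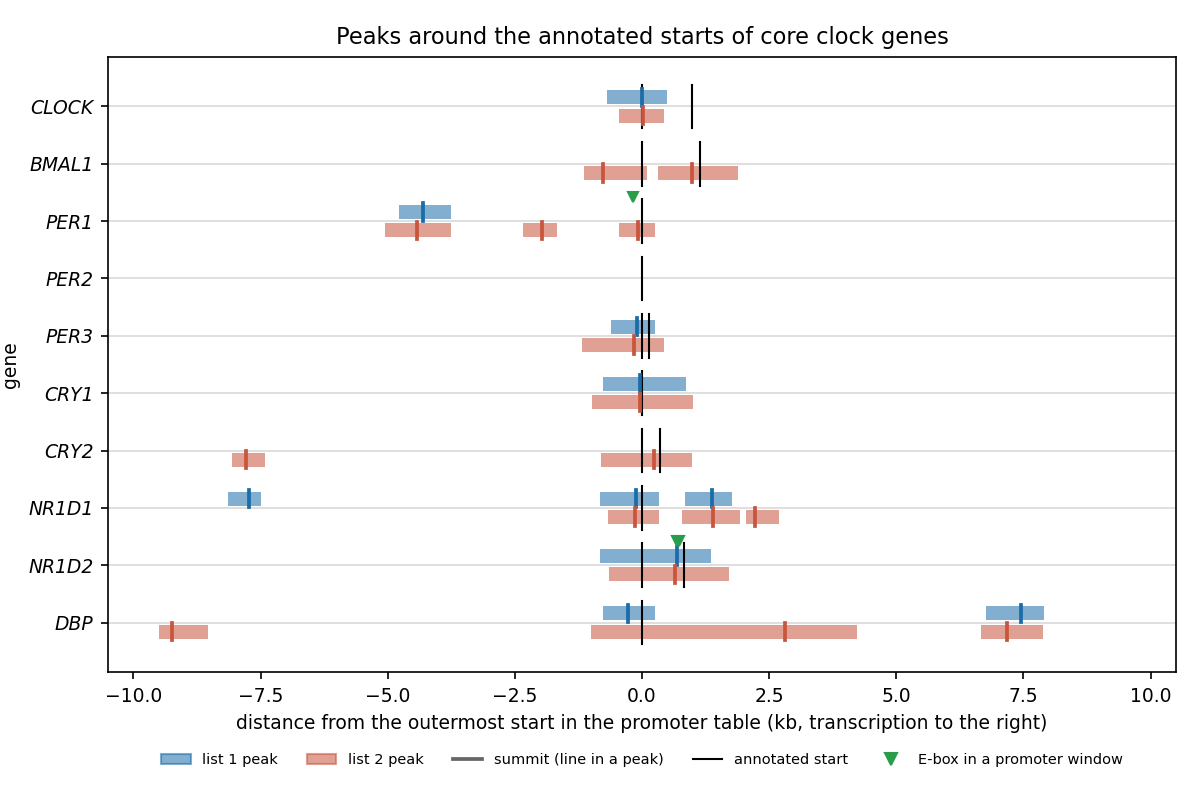
Peaks of list 1 (blue bars) and list 2 (red bars) around the starts of the 10 genes, with summits as thick lines, annotated starts as thin black lines and E-boxes found in promoter windows as green triangles; the horizontal axis is the distance in kb from the outermost start in the promoter table. CLOCK, PER3, CRY1, NR1D1, NR1D2 and DBP have a peak over a start in both lists, BMAL1, PER1 and CRY2 in list 2 alone and PER2 in neither; peaks farther out at BMAL1, PER1 and CRY1 are beyond the axis.

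A peak covered an annotated start at 6 of the 10 genes in list 1 (CLOCK, PER3, CRY1, NR1D1, NR1D2 and DBP), where 15.8% of the protein-coding genes with a promoter window had one. In list 2 the same held for 9 of the 10 (31.4% of all), and in both lists for 6 (12.4%).

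The PER/CRY arm ranged from no peak at PER2 to 5 peaks at PER1. PER1, a light- and hormone-responsive repressor gene, had a single list 1 peak, 4298 bp upstream of its start at chr17:8156161-8157185. It held 93 tags with a fold of 9.92 and an FDR of 5.76%, which ranked 814th of the list 1 peaks by fold. The list 2 peak at the same place (chr17:8156162-8157454) held 110 tags with a fold of 5.37 and an FDR of 0.38%. The tag ratio of list 2 to list 1 was 1.27 (0.954 to 1.69) while the fold in list 2 was 0.54 times that in list 1, so fold and tags did not move together there. The centre of this peak was nearer to VAMP2, a vesicle fusion gene, than to PER1: it was 2474 bp from VAMP2 and 4269 bp from PER1 in list 1. Counted for the nearest coding gene only, the peak left PER1 without a shared peak.

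The other 4 PER1 peaks were found in list 2 alone. One covered the PER1 start (chr17:8152149-8152859, 41 tags, 6.31-fold, FDR 4.21%), with its summit 76 bp upstream of the start and 94.5 bp from the middle of the E-box printed above. The strongest by fold lay beyond the 3′ end of the gene (chr17:8138559-8139902, 66 tags, 8.99-fold, FDR 1.14%). The remaining 2 had summits 1971 bp upstream of the start (34 tags, 5.11-fold, FDR 16.13%) and 20174 bp downstream of it (28 tags, 5.67-fold, FDR 22.13%), where HES7 was the nearest coding gene. PER1 thus carried the most peaks of the 10 genes in list 2.

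PER2, a repressor gene of the same family, is the member that stood apart. The nearest peak centre to the gene was 1101599.5 bp away in list 1 (7.65-fold, 40 tags) and 517396 bp away in list 2 (6.73-fold, 26 tags). Within 1000000 bp of PER2 there were 0 peaks in list 1 and 1 in list 2, where the other 9 genes had 5 to 30 in list 1 and 9 to 66 in list 2. Beside the other 9 genes, the scarcity of peaks therefore covered the neighbourhood of PER2 and not the gene alone. No share of all protein-coding genes is given for this count. The part of the scarcity in the lack of peaks at PER2 was not tested. The only PER2 start in the promoter table lies within the gene as the gene table draws it, at base 238288610. Its window held the E-box variant, 197 to 192 bases before the start, and a D-box across the start itself.

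PER3, the third PER gene, had 1 peak in each list over both of its annotated starts. In list 1 (chr1:7783683-7784556) it held 58 tags with a fold of 6.25 and an FDR of 100%, and in list 2 (chr1:7783102-7784714) 109 tags with a fold of 10.98 and an FDR of 0.2%. The PER3 summits were 52 bp apart, 102 and 154 bp upstream of the first start. List 2 had 2.02 times the tags of list 1 (1.45 to 2.82), over a peak of 1613 bp against one of 874 bp. The window had no E-box, and the D-box printed above lay 71.5 bp from the list 1 summit and 19.5 bp from that of list 2. The neighbouring gene VAMP3 ended 2687 bp from the list 1 centre.

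CRY1, a main repressor of the CLOCK and BMAL1 pair, had a broad peak over its start in both lists. The CRY1 peak held 123 tags in list 1 (chr12:107092685-107094325) and 141 in list 2 (chr12:107092541-107094532), a ratio of 1.23 (0.959 to 1.58) per read kept. Its folds were 4.21 and 6.62, and its FDRs 100% and 2.41%. The summits agreed to 15 bp, 30 and 45 bp upstream of the start, and stood 56.5 and 41.5 bp from the E-box variant. List 2 had a second CRY1 peak within the gene, with a summit 49545 bp downstream of the start and 34 tags (3.96-fold, FDR 23.89%).

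CRY2, the paralogue of CRY1, had its peaks in list 2 alone. One of 1794 bp (chr11:45846307-45848100) covered both annotated CRY2 starts with 120 tags, a fold of 4.36 and an FDR of 8.37%, and its summit stood 67.5 bp from an E-box variant and 56.5 bp from a half-site. The other was 7783 bp upstream (chr11:45839054-45839700, 39 tags, 5.93-fold, FDR 4.24%). In list 1 the nearest peak centre to CRY2 was 161144.5 bp away. In list 2 the start peaks of the CRY genes thus held similar numbers of tags, 120 at CRY2 and 141 at CRY1, and list 1 had a peak at CRY1 alone.

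**Figure D3:**
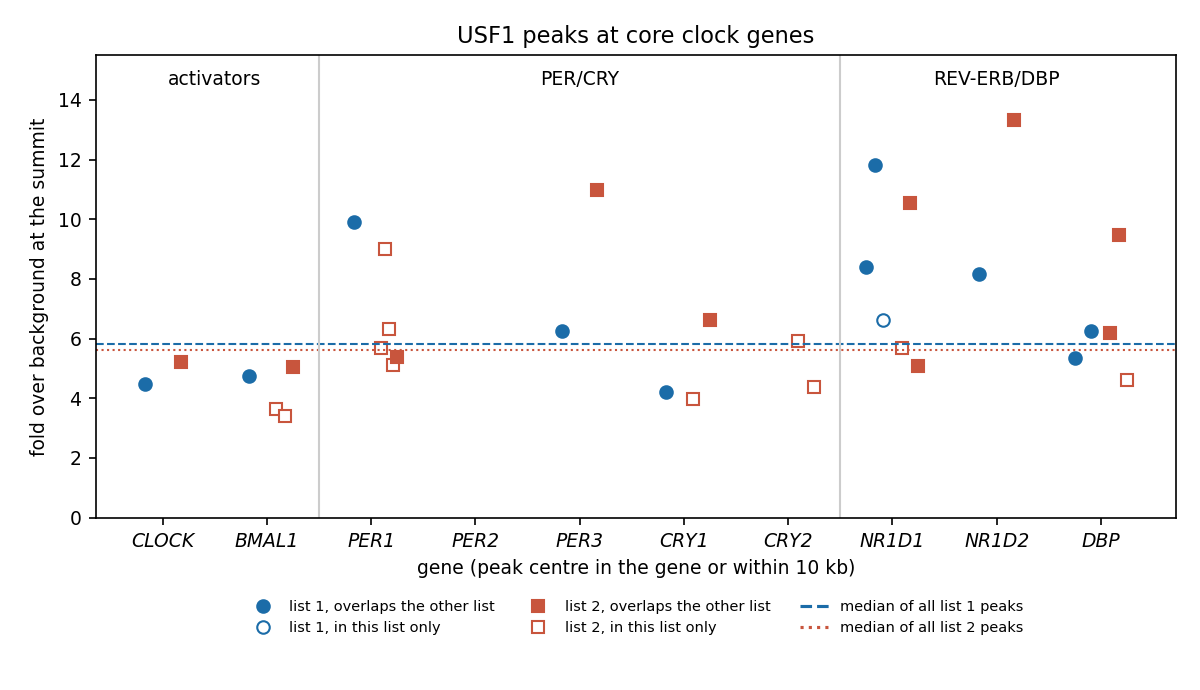
Fold over background at the summit (vertical axis) of each of the 32 peaks at the 10 clock genes, with list 1 as circles and list 2 as squares, filled where the peak overlaps one of the other list; the dashed and dotted lines are the medians of all peaks of list 1 (5.83) and list 2 (5.6). CLOCK and BMAL1 stay below both lines, and the highest values are 13.34 at NR1D2 in list 2 and 11.82 at NR1D1 in list 1.

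The REV-ERB/DBP arm had the highest single fold and the highest single tag count at clock genes in each list, and all 3 of its genes had a shared peak over a start. NR1D2, which encodes the heme-binding repressor REV-ERB beta, carried 1 peak in each list that spanned both annotated starts. In list 1 (chr3:23944468-23946633) the NR1D2 peak held 253 tags over 2166 bp, with a fold of 8.15 and an FDR of 2.08%. In list 2 (chr3:23944636-23947000) it held 272 tags over 2365 bp, with a fold of 13.34 and an FDR of 0. The tag ratio was 1.15 (0.969 to 1.37), so the IP signal of the lists did not differ beyond counting error. NKIRAS1, an inhibitor of NF-kB signalling, overlaps this place, so the peak cannot be given to NR1D2 alone.

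The summits at NR1D2 lay at the second start and not at the first, 140 and 193 bp upstream of the second in list 1 and list 2. This is where the printed stretch has its D-box and 2 E-boxes. The first E-box was 12.5 bp from the list 1 summit and 40.5 bp from the list 2 summit, the second 37.5 and 90.5 bp, and the D-box 50.5 and 2.5 bp. The window at the first NR1D2 start held none of the 4 sequences.

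NR1D1, which encodes REV-ERB alpha, had 2 shared peaks, 1 over the start and 1 within the gene. The start peak (chr17:40100262-40101414 in list 1, chr17:40100257-40101265 in list 2) held 97 and 64 tags, with folds of 11.82 and 5.08 and FDRs of 7.45% and 5.22%. List 2 had 0.708 times the tags of list 1 there (0.508 to 0.981). The peak within NR1D1 (chr17:40098815-40099744 in list 1, chr17:40098653-40099811 in list 2) held 86 and 92 tags, with folds of 8.41 and 10.53 and FDRs of 9.98% and 0.13%. Its tag ratio was 1.15 (0.846 to 1.56). The lists thus ranked the NR1D1 peaks differently by fold: the start peak led in list 1 and the inner peak in list 2.

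The summits of the NR1D1 start peak were 115 and 139 bp upstream of the start and 50.5 and 26.5 bp from the E-box variant. Those of the inner peak were 1378 and 1397 bp downstream of the start, outside any promoter window. Each list had 1 more NR1D1 peak of its own, at chr17:40108072-40108735 in list 1 (48 tags, 6.63-fold, FDR 85.66%) and chr17:40097898-40098553 in list 2 (32 tags, 5.67-fold, FDR 11.11%). THRA, a thyroid hormone receptor gene, also had an end within 10000 bp of the centres of both shared peaks.

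DBP, a PAR bZIP activator of the clock's output, had a shared peak at each end of the gene. At the start, list 1 had a peak of 1020 bp (chr19:48637118-48638137) with 91 tags, a fold of 6.25 and an FDR of 100%. List 2 had a peak of 5226 bp (chr19:48633156-48638381) with 377 tags, a fold of 9.47 and an FDR of 0, which covered the start and much of the gene. Its summit was inside DBP, 2809 bp downstream of the start, where that of list 1 was 279 bp upstream of it. The tag ratio of 4.45 (3.53 to 5.65) thus compared peaks of unlike width. Their summits were 3088 bp apart, that of list 2 lay outside the list 1 peak, and the overlap was 19.5% of the list 2 peak. Without scaling to the libraries, the DBP start peak had 72.1 tags per kilobase in list 2 and 89.2 in list 1. The part of width in the ratio was not tested. The DBP window had none of the 4 sequences, and the end of CA11, a carbonic anhydrase-related gene, was 318 bp from the list 1 centre.

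The second shared DBP peak lay at the 3′ end of the gene (chr19:48629468-48630610 in list 1, chr19:48629489-48630717 in list 2), where SPHK2, a sphingosine kinase gene, overlaps it. It held 87 tags in list 1 and 81 in list 2, with folds of 5.36 and 6.18 and FDRs of 100% and 0.65%. The tag ratio was 0.999 (0.729 to 1.37). A further list 2 peak was centred 9012 bp from DBP and 204 bp from CA11 (55 tags, 4.62-fold, FDR 12.16%). It was the outermost peak taken in, and the nearest DBP peaks left out were centred 10621.5 bp away in list 1 (4.96-fold) and 10766.5 bp away in list 2 (6.74-fold).

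**Figure D4:**
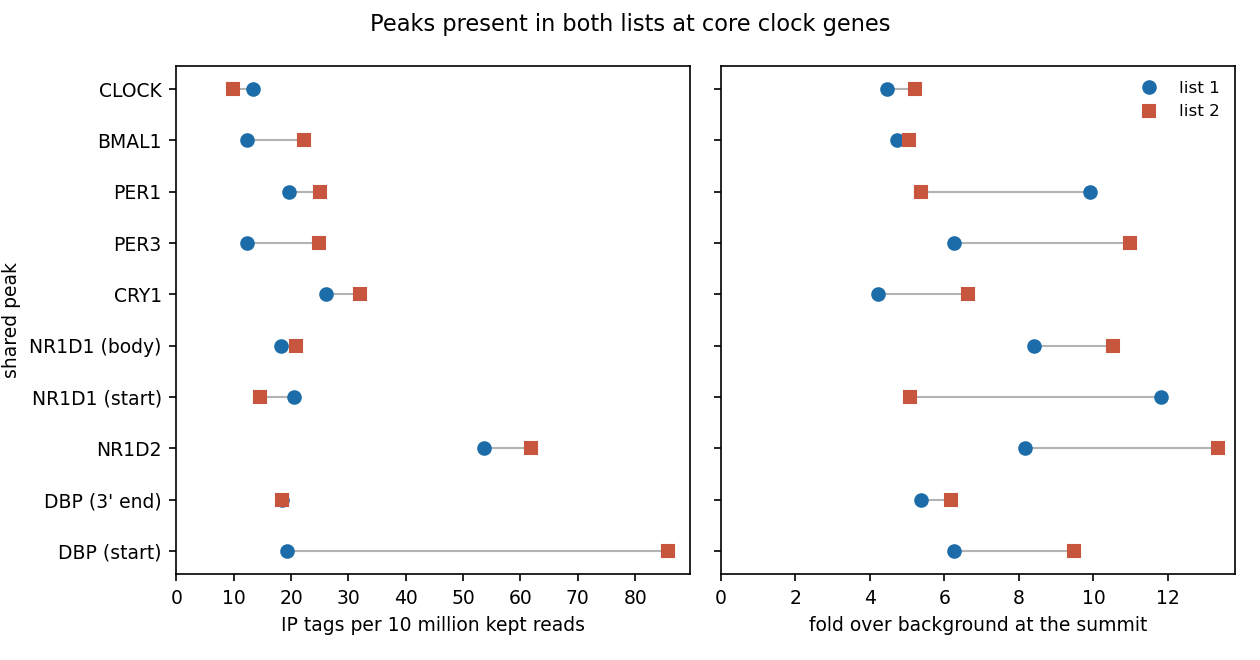
The 10 shared peaks of the clock genes, with list 1 as circles and list 2 as squares joined by a line: IP tags per 10000000 kept reads (left axis) and fold over background at the summit (right axis). Tags differ most at the DBP start (19.29 and 85.79), and the fold differs most at the NR1D1 start (11.82 and 5.08).

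By arm, folds in list 1 ran from 4.46 to 4.73 for the activators, from 4.21 to 9.92 for PER/CRY and from 5.36 to 11.82 for REV-ERB/DBP. In list 2 they ran from 3.4 to 5.22, from 3.96 to 10.98 and from 4.62 to 13.34 in the same order. The ranges of PER/CRY and REV-ERB/DBP overlapped widely in both lists. The activators lay below every REV-ERB/DBP peak in list 1 and overlapped them in list 2. Against PER/CRY, the activators lay within the range in list 1, above the CRY1 peak (4.21), and overlapped it in list 2. Only 2 peaks make up the activator range in list 1, with FDRs of 70.65% and 100%. Tags summed to 662 for REV-ERB/DBP, 274 for PER/CRY and 121 for the activators in list 1, and to 973, 722 and 331 in list 2. These sums grow with the number and the width of an arm's peaks.

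Overlap between the lists took in 10 of the 11 clock gene peaks of list 1 and 10 of the 21 of list 2. Over the whole lists it took in 37.3% of list 1 peaks and 19.6% of list 2 peaks, which include peaks far from genes. Counted by gene, 6559 protein-coding genes had a list 1 peak and 4318 a shared one, beside 8 and 8 clock genes. For peaks over an annotated start the counts were 2507 and 1970, beside 6 and 6 clock genes. In 8 of the 10 clock gene pairs the fold was higher in list 2, as it was in 62.7% of all pairs. In 6 of the 10 the interval of the tag ratio included 1. The summits of the 10 pairs lay a median of 52.5 bp apart, with 6 of 10 within 100 bp. Over the 5377 overlapping pairs of the whole lists these values were 38 bp and 75.2%. The median fold of the clock pairs was 6.25 in list 1 and 6.4 in list 2, beside 6.37 and 7.03 over all pairs. The folds of the clock pairs were thus near those of all pairs, while their tags (medians 89 and 103.5) and widths (1105.5 and 1435 bp) were above those of all pairs (61 and 68 tags, 868 and 982 bp). In list 1, 2 clock genes (NR1D1 and DBP) had at least 2 peaks (8.49% of all protein-coding genes) and NR1D1 had 3 (2.92%). In list 2, 6 had at least 2 peaks (25.5%), and BMAL1, PER1, NR1D1 and DBP had at least 3 (10.4%).

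Stricter thresholds lowered the counts in list 1 and among shared peaks more than they did for list 2 peaks. With a fold of at least 8, peaks lay at 3 clock genes in list 1 (6.91% of all protein-coding genes), at 5 in list 2 (12.6%) and, as shared peaks, at NR1D1 and NR1D2 (4.36%). With a p of at most 1e-10 the counts were 3 in list 1 (12.2%), 7 in list 2 (28.4%) and 3 shared, at PER1, NR1D1 and NR1D2 (8.38%). With an FDR of at most 5% they were 1 in list 1 (1.88%), 8 in list 2 (32.5%) and 1 shared, at NR1D2 (1.83%). Asking for summits within 100 bp left shared peaks at CLOCK, PER3, CRY1, NR1D1 and NR1D2 (15.8%).

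Closer assignment moved the counts by at most 1 gene. In the gene or within 1000 bp of it, 7 clock genes had a peak in list 1 (25.9%), 9 in list 2 (47.0%) and 7 a shared one (16.8%). With each peak given to its nearest coding gene alone, the counts were 7 (25.0%), 9 (46.0%) and 7 (14.7%). PER1 was the gene lost in list 1 and among the shared peaks under each of these rules.

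A second list of 19 genes beside the core loop, 1 of them a pseudogene, was counted in the same way. It included paralogues of CLOCK and BMAL1, ROR and DEC factors, PAR bZIP factors and kinases and ligases that modify PER and CRY. Shared peaks lay at 5 of the 19 (RORB, TEF, BHLHE40, BHLHE41 and SIRT1), beside 21.6% of all protein-coding genes. The count of shared peaks was thus near the background under this rule, and counts at stricter thresholds are given at the end. In list 1, 11 of the 19 had a peak (32.7% of all protein-coding genes), and in list 2, 15 (56.8%). SIRT1, a deacetylase that binds the clock activators, had the highest folds of these shared peaks, over its start (12.5-fold and 20.81-fold, FDRs 4.55% and 0). The SIRT1 peak held 197 tags in list 1 and 263 in list 2. By tags the highest shared peak was at BHLHE41 in list 1 (259 tags) and at BHLHE40 in list 2 (283 tags). TEF, a paralogue of DBP, had 9.6-fold and 12.7-fold over an annotated start (112 and 86 tags, FDRs 5.43% and 0.15%). RORB, a receptor that competes with REV-ERB, had 9.68-fold and 8.94-fold within the gene (50 and 49 tags, FDRs 34.17% and 3.74%).

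BHLHE41, the DEC2 repressor gene, had 3 shared peaks, with folds of 5.29, 5.57 and 4.19 in list 1 and 8.84, 7.3 and 5.87 in list 2. Their FDRs were 13.49%, 100% and 100% in list 1 and 0.12%, 0.65% and 0.31% in list 2. BHLHE40, the DEC1 repressor gene, had 2 shared peaks, with 4.36-fold and 6.25-fold in list 1 and 8.94-fold and 3.94-fold in list 2. The BHLHE40 FDRs were 73.53% and 63.59% in list 1 and 0 and 6.8% in list 2, and the summits lay 353 and 264 bp apart. No shared peak was found at the other 14 genes: BMAL2, NPAS2, RORA, HLF, NFIL3, CIART, CSNK1D, CSNK1E, FBXL21P, BTRC, TIMELESS, USP2, GSK3B and PRKAA1. Of these, CSNK1E and FBXL21P had no peak in either list. FBXL21P is a transcribed pseudogene, so it was counted in the accessory list but is not among the protein-coding genes.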

How the data were processed

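ChIP-seq for USF1 was done in Huh7 cells with an antibody to the FLAG tag, with 2 IP and 2 input libraries. Per the file headers, the authors called peaks with MACS 1.4.2 for each IP against its own input at a p cutoff of 1e-05, keeping at most 1 tag per position and scaling the larger library to the smaller. The submitters' processing notes list GRCh38 as the build and Bowtie2, HOMER and deepTools as tools, without roles. Per the file headers, the deposited values of a peak are a count of IP tags, a fold over the expected background (a ratio), a score of minus 10 times log10 p and an FDR in percent. All values of single peaks are the authors' own.

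Peaks were assigned to RefSeq genes (GRCh38.p14) in Python 3.11.15 with pandas 2.3.3, numpy 2.4.6 and scipy 1.17.1, and figures were drawn with matplotlib 3.10.9. The assignment was tested on simulated data. The summit was taken as peak start plus the deposited offset minus 1 bp; the files do not say whether the offset counts from 0 or 1. Strands and starts came from the promoter table, and distances run to the nearest start in it. All 10 members are named, as are coding genes within 10000 bp that a result touches and each accessory gene with a shared peak. Members and lists were chosen with earlier results of these data known, and a few genes of the accessory list are not reported here or counted in it. Alternatives changed the window, the position, the thresholds, the overlap rule and the lists used.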

Additional observations from a re-analysis of the deposited data

How the results depend on the processing

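No paired analysis was possible because the peak calls have used up the pairing of IP and input, and no input count per peak is given. The number of clock genes with a peak (8 in list 1, 9 in list 2, 8 shared) stayed within 1.5 times its value at windows of 1000, 5000 and 50000 bp. The same held with summits or any overlapping base as the position, with nearest coding genes and with 50% of each width overlapping. These counts cannot rise above 10, while at 50000 bp the shares of all protein-coding genes were 53.5% in list 1, 77.6% in list 2 and 37.3% shared. With 1 replicate left out no peak can be shared. The counts are then those of a single list, 8 genes without replicate 2 (32.7% of all) and 9 without replicate 1 (56.8%), against 21.6% for shared peaks. Stricter thresholds lowered the number of clock genes with a peak. At a fold of at least 8 it was 3 in list 1, 5 in list 2 and 2 shared. At a p of at most 1e-10 it was 3 in list 1 and 3 shared, and at an FDR of at most 5% it was 1 in list 1 and 1 shared. With summits within 100 bp 5 genes had a shared peak, since BMAL1, PER1 and DBP dropped out. An annotated start within both peaks, a rule chosen after seeing the data, left 6. For the accessory list the alternatives were also added after seeing the data: its 5 genes became 9 within 50000 bp, 3 at a fold of at least 8, 3 at a p of at most 1e-10, 1 at an FDR of at most 5%, and 11 to 15 in a single list. The log2 ratio of list 2 to list 1 tags at the DBP start peak was 2.05 for raw tags, 2.15 per read kept and -0.20 per read kept and per kilobase. At PER3 it was 0.91, 1.01 and 0.13 on the same scales. Both list 2 peaks are wider than those of list 1. Ranked by tags, the strongest peak was the same in 14 of 17 cases of a gene in a list, and by score in 16. A gene with 1 peak in a list could not change, so these counts include cases fixed in advance. The cases that changed were BMAL1, CRY2 and PER1 in list 2 by tags, and PER1 in list 2 by score. With 2 lists and no input counts per peak, the intervals leave out any spread between cultures.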
